A study of Mus musculus with 8 samples.

Results

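The matrix metalloproteinases and their tissue inhibitors are described here through 10 genes: the metalloproteinase genes Mmp2, Mmp3, Mmp9, Mmp10, Mmp13, Mmp14 and Mmp19, and the inhibitor genes Timp1, Timp2 and Timp3. Members were taken by the gene name in the scanner tables, which gave 13 of the 41174 non-control probes on each array and 22 of its 43379 non-control spots. Mmp3 was set against the other 9 and was chosen by measured values, namely a knockdown ratio that lay lower in heavy polysome RNA than in total RNA. Its ratios are therefore given as a description, without a test. The cells were stromal cells from BALB/c lymph nodes grown in culture, the fibroblast-like support cells of the node. They received 400 pmol of siRNA against Eif4g3 or of a control siRNA by lipid transfection and were harvested at 48 h. Eif4g3 encodes an eIF4G-type adaptor that brings ribosomes to capped mRNA. RNA was taken from the whole lysate (total RNA) and from the pooled heavy fractions of a sucrose gradient (heavy polysome RNA), which hold transcripts carrying many ribosomes, and cells were pooled before fractionation. Each fraction was measured on 4 two-colour arrays, with Eif4g3 siRNA cells in Cy5 and control siRNA cells of the same fraction in Cy3 on all 8 arrays.

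Matrix metalloproteinases are zinc-dependent proteases that cut collagens, proteoglycans and glycoproteins around cells. Most are secreted as inactive precursors whose propeptide must be removed, and some sit in the cell membrane. TIMPs bind the active site and block it. Stromelysins (Mmp3, Mmp10) cleave many non-fibrillar matrix proteins and can activate other precursors, the collagenase Mmp13 opens fibrillar collagen, and the gelatinases Mmp2 and Mmp9 degrade denatured collagen and basement membrane. Mmp14 is membrane-bound and, together with Timp2, activates the Mmp2 precursor at the cell surface. In fibroblasts, stromelysin and collagenase genes are classical targets of the AP-1 transcription factor downstream of cytokines and growth factors.

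The genes Mmp13, Mmp3 and Mmp10 are neighbours on mouse chromosome 9, and the letters before their starts are shown because these 3 genes shared the array of lowest level, as described further on. RefSeq windows on GRCm38.p6 were found for 7 of the 10 members, and none for Mmp2, Mmp9 or Mmp19. The last 150 bases before each start are printed 5′ to 3′ on the gene strand, which is the plus strand for all 3. Capitals mark TGAGTCA or its reverse complement TGACTCA (the AP-1 site, searched on both strands), TATAAA (gene strand) and AGGAAG or its reverse complement CTTCCT (an Ets-type motif, both strands), and no marked stretch overlaps another.
Mmp13 (chr9:7272364-7272513): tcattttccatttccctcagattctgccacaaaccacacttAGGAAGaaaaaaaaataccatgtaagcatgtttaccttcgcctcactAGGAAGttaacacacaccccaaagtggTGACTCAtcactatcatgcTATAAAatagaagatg
Mmp3 (chr9:7445672-7445821): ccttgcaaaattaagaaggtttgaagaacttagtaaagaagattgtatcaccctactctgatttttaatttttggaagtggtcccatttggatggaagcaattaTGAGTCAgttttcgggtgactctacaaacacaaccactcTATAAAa
Mmp10 (chr9:7502192-7502341): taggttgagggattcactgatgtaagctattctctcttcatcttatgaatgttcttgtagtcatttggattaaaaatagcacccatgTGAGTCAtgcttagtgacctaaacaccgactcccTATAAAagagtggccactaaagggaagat
An AP-1 motif and TATAAA stood in 3 of the 7 windows, the same 3 genes, and in 2.84% and 4.84% of all 32843 RefSeq windows of this length. The Ets-type motif stood in the windows of Mmp13 and Timp1, and in 19.7% of all windows. Counted back from the annotated start, the AP-1 motif began at base -35 in Mmp13, -46 in Mmp3 and -63 in Mmp10. TATAAA began at -16, -7 and -29 in the same order. These distances depend on the annotated starts, which were not checked.

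The arrays themselves were uneven. Across the 14483 genes tested, pairs of arrays correlated at 0.080 to 0.883, and heavy polysome array 1 was the lowest on average within its fraction (0.289), with Cy3 signal well above background on 38.4% of spots against 46.0% to 56.1% on the other 3. A ratio is the log2 of the Eif4g3 siRNA signal over the control signal, and means are given ± SD with n = 4 arrays. Labelling had no dye swap, so a probe's dye bias cannot be told apart from a change of its transcript within a fraction. The arrays lay on 5 slides, each with 1 fraction, so fraction and slide cannot be told apart. Nothing in the labels says that replicates came from separate cultures, so the spread may be technical. The ratio of the siRNA target Eif4g3 was negative on every array, at -2.07 ± 0.29 in total RNA (adjusted p = 0.00198) and -2.46 ± 0.50 in heavy polysome RNA (adjusted p = 0.000608). All 12 fibroblast stromal markers, among them Pdpn, Pdgfra and Col1a1, were well above background in both channels on all 8 arrays. Their medians were -0.23 in total and -0.16 in heavy polysome RNA, with 1 lower (Col1a2) in total RNA. On the heavy polysome side 4 were lower (Pdgfra, Pdgfrb, Col1a1 and Col1a2) and 1 was higher, the chemokine gene Cxcl12. Cxcl12 was at 0.78 ± 0.47 there (adjusted p = 0.0197), but at 0.15 over all its tested probes (adjusted p = 0.695). Shares of all tested genes were 2.71% lower in total RNA, and 4.03% lower and 4.87% higher in heavy polysome RNA. Every heavy polysome call among these markers failed once array 4 of that fraction was dropped. Those of Pdgfrb, Col1a1 and Col1a2 failed also when its array 1 or 2 was dropped. In total RNA the Col1a2 call failed whichever array of that fraction was dropped. The part of a change in the stromal cells' share in the members' ratios was not tested.

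Of the 10 members, 9 were tested. Testing needed a probe well above background in 1 channel or both, on 3 or more arrays of either fraction. By limma over all tested genes (adjusted p below 0.05), 4.38% of genes passed in total RNA, against 8.91% in heavy polysome RNA. None of the 8 tested members other than Mmp3 passed in either fraction, and in each fraction 2 of the 8 had an unadjusted p below 0.05. The shares of all tested genes at that unadjusted level, 22.1% in total and 25.4% in heavy polysome RNA, were about the same. For the difference between fractions, 0.00% of genes passed (0 of 14483, with 756 at an unadjusted p below 0.05). The count in total RNA, 634, became 51 to 230 when 1 total RNA array was dropped, 301 and 247 without heavy polysome arrays 2 and 4, and 1317 and 1084 without heavy polysome arrays 1 and 3. That in heavy polysome RNA, 1290, became 542 and 337 without heavy polysome arrays 2 and 4.

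Mmp3, the gene of stromelysin 1, was lower in Eif4g3 siRNA cells on all 8 arrays. Its ratios were -0.20, -0.55, -0.97 and -1.04 on total RNA arrays 1 to 4, a mean of -0.69 ± 0.39 or 1.61-fold lower. The heavy polysome ratios were -2.61, -0.66, -1.59 and -1.33, a mean of -1.55 ± 0.81 or 2.92-fold lower. In such bulk samples fewer cells of a type and less RNA per cell cannot be told apart. The ranges of the fractions overlapped, since heavy polysome array 2 lay above total RNA arrays 3 and 4. Among all tested genes, 7.85% were below 0 on all 8 arrays. Both channels of the Mmp3 probe (A_51_P255699, mm8 chromosome 9, 7455751 to 7455810) were well above background on every array, with mean spot signals in Cy3 from 337 to 2905. In Cy5 the probe was dim on array 3 of each fraction. Its signal there was 68.1 in total RNA (background 38.5) and 77.7 in heavy polysome RNA (background 37). Within slides the mean ratio was -0.62, -0.55 and -0.97 on the 3 total RNA slides and -1.64 and -1.46 on the heavy polysome slides.

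The difference that set Mmp3 apart, heavy polysome minus total RNA, was -0.86. With arrays centred on their medians instead of loess it was 0.02, since the total RNA value of Mmp3 moved from -0.69 to -1.49, but the median difference of all tested genes was then 0.78 and Mmp3 lay -0.76 from it. Over the 8 other tested members it had a median of 0.16 and ran from -0.36 (Mmp10) to 0.77 (Timp2), and the median of all tested genes was 0.06. Of all tested genes, 6 (0.0414%) lay at or below the Mmp3 value, which describes how the gene was chosen. Heavy polysome array 1 carried much of the distance, and without it the difference of Mmp3 was -0.50, with a heavy polysome mean of -1.19 ± 0.48 (n = 3). On 7 of the 8 arrays Mmp3 had the lowest ratio of the 9 tested members, and the exception was total RNA array 1, where Timp2, Mmp2 and Timp3 were lower.

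**Figure D1:**
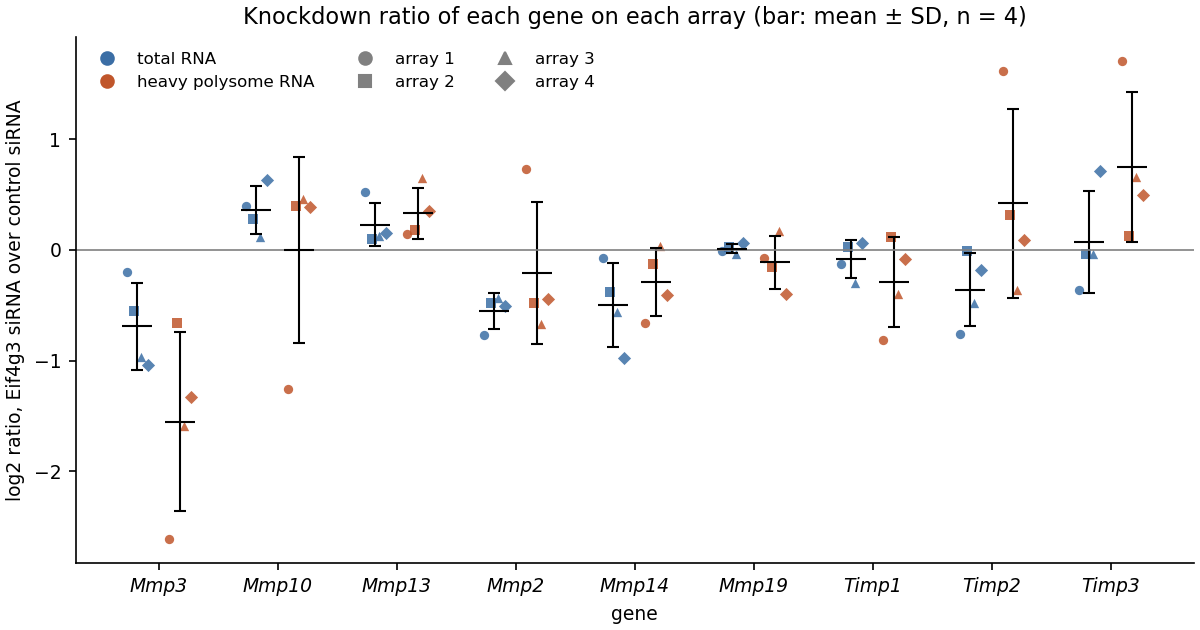
Log2 ratio of Eif4g3 siRNA over control siRNA (vertical axis) for the 9 tested genes (horizontal axis) on each of 8 arrays. Blue marks total RNA, orange heavy polysome RNA, the marker shape the array number, and black bars the mean ± SD of 4 arrays. All 8 Mmp3 points lie below 0, and heavy polysome array 1 stands away from the other heavy polysome arrays for Mmp3, Mmp10, Mmp2, Timp2 and Timp3.

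The other genes of the chromosome 9 group did not share the direction of Mmp3. Mmp10, the second stromelysin (probe on mm8 chromosome 9, 7510011 to 7510070), had ratios of 0.40, 0.28, 0.12 and 0.63 in total RNA (0.36 ± 0.22, adjusted p = 0.449). In heavy polysome RNA its ratios were -1.26, 0.40, 0.46 and 0.39 (0.00 ± 0.84, adjusted p = 0.999), so arrays 2 to 4 lay close together and array 1 far below them. Without heavy polysome array 1 the mean there was 0.42 ± 0.04 (adjusted p = 0.0508, n = 3). The Mmp10 signal was not well above background in Cy5 on total RNA array 3 or in Cy3 on heavy polysome array 3. On total RNA array 3 the Mmp13 signal in Cy5 was not well above background either. Mmp13, an interstitial collagenase of mice (chromosome 9, 7282762 to 7282821), was above 0 on all 8 arrays, as were 6.15% of all tested genes. Its ratios were 0.52, 0.10, 0.13 and 0.15 in total RNA (0.23 ± 0.19, adjusted p = 0.272) and 0.14, 0.18, 0.65 and 0.35 in heavy polysome RNA (0.33 ± 0.23, adjusted p = 0.0966). The 95% interval of the heavy polysome mean ran from 0.08 to 0.58, and the value passed with slide as a random block (adjusted p = 0.0412, at an estimated slide correlation of -0.27), but not with a replicate block (0.188) or with the heavy polysome arrays alone (0.179). Both genes lay above Mmp3 on all 8 arrays, by a mean of 1.05 (Mmp10) and 0.91 (Mmp13) in total RNA, against 1.54 and 1.88 in heavy polysome RNA. In total RNA the directions of Mmp10 and Mmp13 depended on the dye correction: when arrays were centred on their medians the values were -0.10 and -0.27, though the median of all tested genes was then -0.78 and both stayed above it.

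Signal levels of each channel, normalised between arrays, describe the spread of these 3 genes over arrays within each siRNA. In such levels a change of transcript cannot be told apart from differences between slides, scans and their scaling. In control siRNA cells the Mmp3 level (log2 signal) was 9.84, 10.19, 8.13 and 9.75 across total RNA arrays 1 to 4, with 11.77, 9.81, 8.56 and 9.62 across the heavy polysome arrays. In Eif4g3 siRNA cells it was 9.65, 9.64, 7.16 and 8.71 in total RNA, with 9.16, 9.15, 6.97 and 8.29 in the polysome fraction. Array 3 was the lowest of its fraction in both channels.

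Mmp10 and Mmp13 had the same low array. There the Cy5 signal of both on total RNA array 3, and the Cy3 signal of Mmp10 on heavy polysome array 3, were not well above background. On total RNA array 3 their control levels were 6.26 and 6.34, against 7.37 to 8.19 and 7.71 to 8.01 on the other total RNA arrays. On heavy polysome array 3 they were 6.30 and 6.27, against 7.37 to 9.61 and 7.91 to 8.81. These 3 members, and none of the other 6 tested, had array 3 lowest in both fractions and both channels, a pattern found in 3.99% of all tested genes and noticed after the values were seen. The range over 8 arrays in control cells was 12.5-fold for Mmp3, 10.2-fold for Mmp10 and 5.80-fold for Mmp13. All 3 were highest on heavy polysome array 1 (11.77, 9.61 and 8.81), the array with the lowest Cy3 detection. Before normalisation their Cy3 signals there were 847, 213 and 121, against up to 2905, 605 and 721 elsewhere. The high levels on that array thus depend on the normalisation. Over the other arrays the control levels ran from 8.13 to 10.19 (Mmp3), 6.26 to 8.19 (Mmp10) and 6.27 to 8.10 (Mmp13). The SD of the control level over all 8 arrays was 1.09, 1.07 and 0.88, against a median of 0.34 for all tested genes, while Timp3 had 0.71 (a 4.34-fold range), Mmp2 0.41, Timp2 0.39, and Mmp14, Mmp19 and Timp1 each 0.22. The knockdown ratios of Mmp3 on array 3 (-0.97 and -1.59) were nonetheless the second lowest of their fractions, though they rest on dim Cy5 signals.

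**Figure D2:**
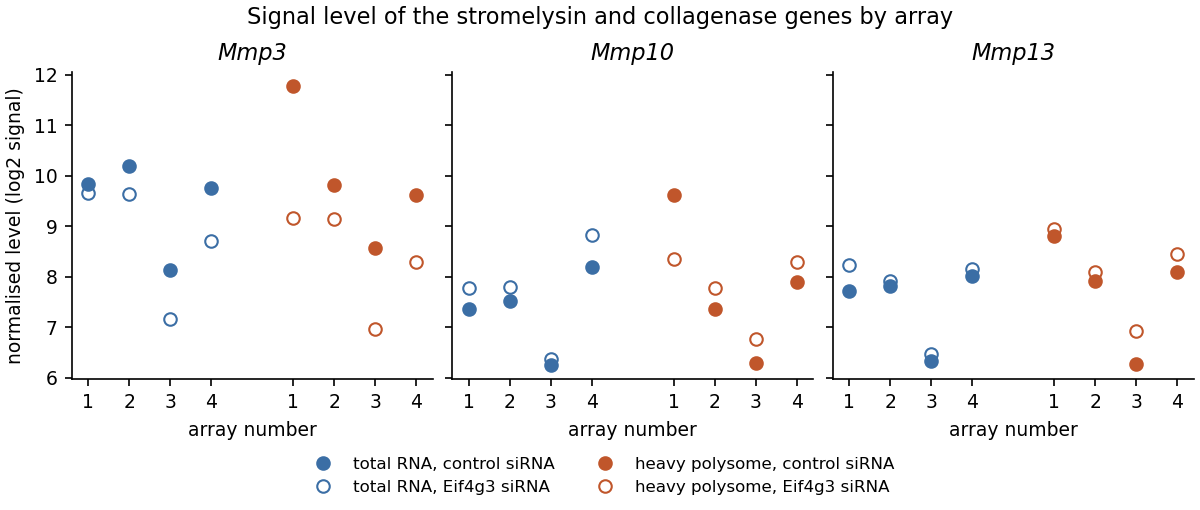
Normalised level (log2 signal, vertical axis) of Mmp3, Mmp10 and Mmp13 by array number (horizontal axis), with total RNA in blue and heavy polysome RNA in orange, control siRNA filled and Eif4g3 siRNA open. Array 3 is lowest in every colour and fill for all 3 genes, and open Mmp3 points lie below filled ones on all 8 arrays.

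The Mmp2 system comprises the gelatinase precursor, its membrane activator and its adaptor inhibitor. Mmp2 (mm8 chromosome 8, 95742069 to 95742128) had ratios of -0.77, -0.48, -0.43 and -0.51 in total RNA (-0.55 ± 0.16, adjusted p = 0.142, 95% interval -0.99 to -0.11). On heavy polysome arrays it had 0.73, -0.48, -0.67 and -0.44 (-0.21 ± 0.64, adjusted p = 0.545). It was thus negative on 7 arrays and positive on heavy polysome array 1. Without that array Mmp2 was lower in total RNA (-0.55, adjusted p = 0.0114) and in heavy polysome RNA (-0.53, adjusted p = 0.0197). With Mmp3 described without a test, Mmp2 was the only member that passed in a fit with 1 array left out. A fit on the total RNA arrays alone also called it lower (adjusted p = 0.0355), whereas a replicate block (0.218) and the deposited ratios (-0.49, adjusted p = 0.121) did not.

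Mmp14, the membrane-type activator (mm8 chromosome 14, 53395337 to 53395396), was below 0 on the 4 total RNA arrays with its brighter probe (-0.07, -0.38, -0.56 and -0.98, mean -0.50 ± 0.38, adjusted p = 0.0985). That probe gave -0.66, -0.13, 0.04 and -0.41 in heavy polysome RNA (-0.29 ± 0.31, adjusted p = 0.276). A second Mmp14 probe (53394143 to 53394202) gave -0.66 ± 0.55 and -0.07 ± 0.55, agreed in sign on 7 of 8 arrays and differed by up to 1.34. With the mean of both probes (-0.58, adjusted p = 0.0325) or with slide as a random block (-0.50, adjusted p = 0.0419), Mmp14 passed in total RNA. It did not pass in the deposited ratios (-0.26, adjusted p = 0.262), with a replicate block (0.161) or with the total RNA arrays alone (0.105).

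Timp2, the inhibitor that also links Mmp14 to the Mmp2 precursor (mm8 chromosome 11, 118117922 to 118117981), had ratios of -0.76, -0.01, -0.48 and -0.18 in total RNA (-0.36 ± 0.33, adjusted p = 0.471) and 1.62, 0.32, -0.36 and 0.09 in heavy polysome RNA (0.42 ± 0.85, adjusted p = 0.362). Its heavy polysome mean was 0.02 ± 0.34 without array 1. In total RNA, Mmp2, Mmp14 and Timp2 were the 3 members other than Mmp3 below 0 on all 4 arrays, and Mmp10 and Mmp13 the 2 above 0 on all 4, against 21.5% and 13.2% of all tested genes. In heavy polysome RNA, none of these 8 members was below 0 on all 4 arrays (14.7% of all tested genes) and 2 were above 0, Mmp13 and Timp3 (17.2% of all tested genes).

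Timp3, an inhibitor that stays bound to the matrix (mm8 chromosome 10, 85778750 to 85778809), had ratios of -0.36, -0.04, -0.04 and 0.71 in total RNA (0.07 ± 0.46, adjusted p = 0.908). It was above 0 on each heavy polysome array, at 1.71, 0.13, 0.66 and 0.50 (0.75 ± 0.68, 1.68-fold, adjusted p = 0.0859, 95% interval 0.21 to 1.29). Without heavy polysome array 1 the mean was 0.43 ± 0.27, and the value of 0.75 passed with slide as a random block (adjusted p = 0.0238, at the slide correlation of -0.27), but not with a replicate block (0.144) or with the heavy polysome arrays alone (0.161). Among the members, Timp3 had the most negative correlation of its ratios with those of Mmp3. It was -0.95 over 8 arrays and -0.85 over the 7 without heavy polysome array 1. Timp1, by its brighter probe, had the highest positive correlation with Mmp3 among the members, at 0.82 and 0.49. On heavy polysome array 1, where Mmp3 was lowest, that probe was at -0.81 but a second Timp1 probe at 0.09. The likeness is thus shown for 1 probe only. Over the same 8 and 7 arrays the correlations with Mmp3 were -0.82 and -0.24 for Mmp2, -0.77 and -0.19 for Timp2, and 0.76 and -0.20 for Mmp10. Mmp13, Mmp14 and Mmp19 were at 0.05, 0.31 and 0.05 over 8 arrays. These points share arrays and their normalisation, so the correlations are a description.

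Timp1, the soluble inhibitor induced in many activated fibroblasts, stayed near 0 on most arrays. Its brighter probe (mm8 chromosome X, 20031508 to 20031566) gave -0.13, 0.03, -0.30 and 0.06 in total RNA (-0.08 ± 0.17, adjusted p = 0.792, 95% interval -0.40 to 0.24) and -0.81, 0.12, -0.40 and -0.08 in heavy polysome RNA (-0.29 ± 0.41, adjusted p = 0.232). A second probe (20029738 to 20029797) gave -0.24 ± 0.09 and -0.16 ± 0.45, and the probes had the same sign on 4 of 8 arrays. Mmp19, a protease of basement membrane proteins (mm8 chromosome 10, 128202114 to 128202173), had the narrowest spread of the 9 tested members in total RNA, from -0.04 to 0.06 (0.01 ± 0.04, 95% interval -0.21 to 0.23), and was at -0.11 ± 0.24 in heavy polysome RNA (adjusted p = 0.530).

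Mmp9, the gelatinase B gene typical of leukocytes and activated cells, was too dim to be tested. Its first probe was well above background in Cy3 on 1 array and in Cy5 on 0 of 8. The other is spotted 10 times per array and was well above background in Cy3 on 1 total RNA and 2 heavy polysome arrays, and in Cy5 on 1 of each fraction. Over its usable spots the ratio was -0.01, -0.05, 0.00 and -0.08 across total RNA arrays, with -0.31, 0.01, -0.12 and -0.05 across heavy polysome arrays and an SD over spots of 0.08 to 0.17. Ratios of spots this near background do not show that Mmp9 was unchanged.

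**Figure D3:**
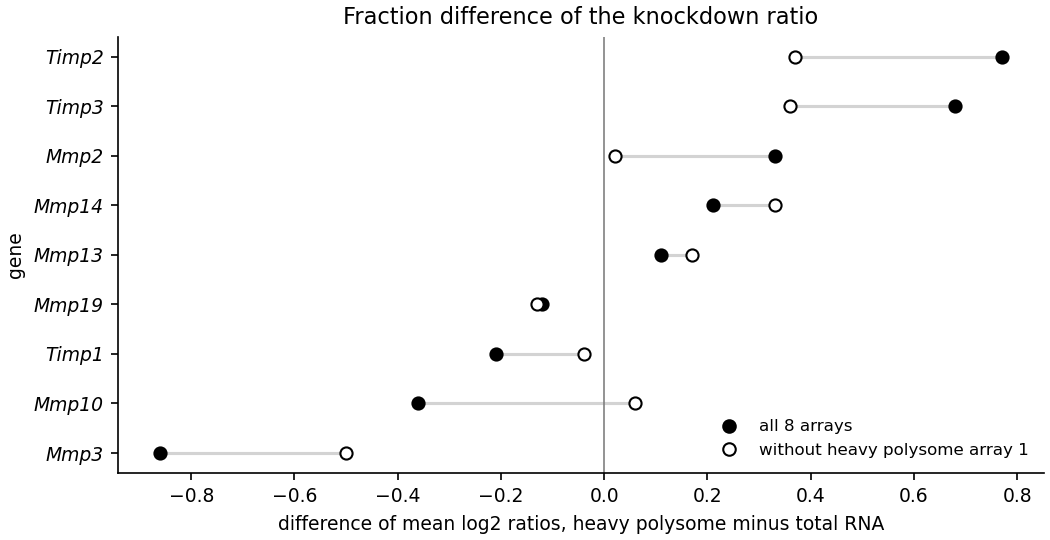
Difference of mean log2 knockdown ratios, heavy polysome minus total RNA (horizontal axis), for the 9 tested genes (vertical axis), with all 8 arrays (filled) and without heavy polysome array 1 (open). Mmp3 is lowest either way, at -0.86 and -0.50, and the values of Timp2, Timp3, Mmp2 and Mmp10 shrink toward 0 without that array.

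How strongly the transcripts sat in heavy polysome RNA was described by the level in that fraction against total RNA. In control siRNA cells all 9 members overlapped between fractions, and arrays lay fully above or below in 1.48% and 8.38% of all tested genes. There Mmp3 was 1.38-fold higher in heavy polysome RNA (9.94 ± 1.34 against 9.48 ± 0.92), a log2 gap of 0.46 that is smaller than the SD of either fraction. That gap was 0.92 without heavy polysome array 3, 0.01 without total RNA array 3 and -0.15 without heavy polysome array 1. In Eif4g3 siRNA cells Mmp3 was 1.31-fold lower in heavy polysome RNA (8.39 ± 1.03 against 8.79 ± 1.17), again within the spread, and the log2 gap of -0.39 ran from -0.94 without total RNA array 3 to 0.08 without heavy polysome array 3.

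Timp3 was the 1 member whose arrays did not overlap. In Eif4g3 siRNA cells its level was 14.37, 14.45, 15.43 and 14.45 in heavy polysome RNA and 13.87, 13.30, 14.35 and 14.02 in total RNA, a 1.73-fold gap. The highest total RNA array (14.35) and the lowest heavy polysome array (14.37) were nearly level. Heavy polysome arrays lay fully above total RNA arrays in 2.82% of all tested genes in those cells and fully below in 5.22%. In control cells the Timp3 levels were 13.93 ± 0.91 and 13.82 ± 0.58.

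Related genes were taken from lists chosen for roles around the metalloproteinases. Of 16 other metalloproteinase genes, 14 were on the array and 4 were tested (Mmp11, Mmp17, Mmp23, Mmp24), with none past the limma threshold (0 in total and 2 in heavy polysome RNA at an unadjusted p below 0.05) and medians of 0.00 and 0.27. Of the 5 other inhibitor genes, 2 were tested and neither passed, with 1 in each fraction at an unadjusted p below 0.05. Reck, a membrane-anchored inhibitor of several metalloproteinases singled out after its values were seen, was above 0 on all 8 arrays (0.40 ± 0.11, adjusted p = 0.0787, and 0.42 ± 0.30, adjusted p = 0.0504).

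ADAM and ADAMTS genes, the metalloproteinases with disintegrin or disintegrin-like domains, had 16 of 17 members tested and medians of -0.33 and -0.19, against -0.04 and 0.02 for all tested genes. The list had also held the astacin proteases Bmp1 and Tll1, neither of which passed, and with them the medians were -0.27 and -0.15. In heavy polysome RNA 3 fell and 0 rose, where 4.03% of all tested genes were called lower. These were Adam8 (-0.94 ± 0.35, adjusted p = 0.0112) and the aggrecan-cleaving Adamts1 (-0.76 ± 0.08, adjusted p = 0.00502) and Adamts9 (-0.65 ± 0.18, adjusted p = 0.00497). Adamts9 (-0.44 ± 0.07, adjusted p = 0.0307) and Adam19 (-0.70 ± 0.20, adjusted p = 0.0388) fell in total RNA, where 2.71% of all tested genes were called lower. Over all its tested probes Adamts9 was at -0.18 there (adjusted p = 0.156), and both total RNA calls were lost without any single total RNA array and without heavy polysome array 4, and that of Adam19 also without heavy polysome array 2 (0.0618 to 0.137). The Adam8 call was lost without heavy polysome array 4 (0.0515), whereas those of Adamts1 and Adamts9 in heavy polysome RNA held without each single array.

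**Figure D4:**
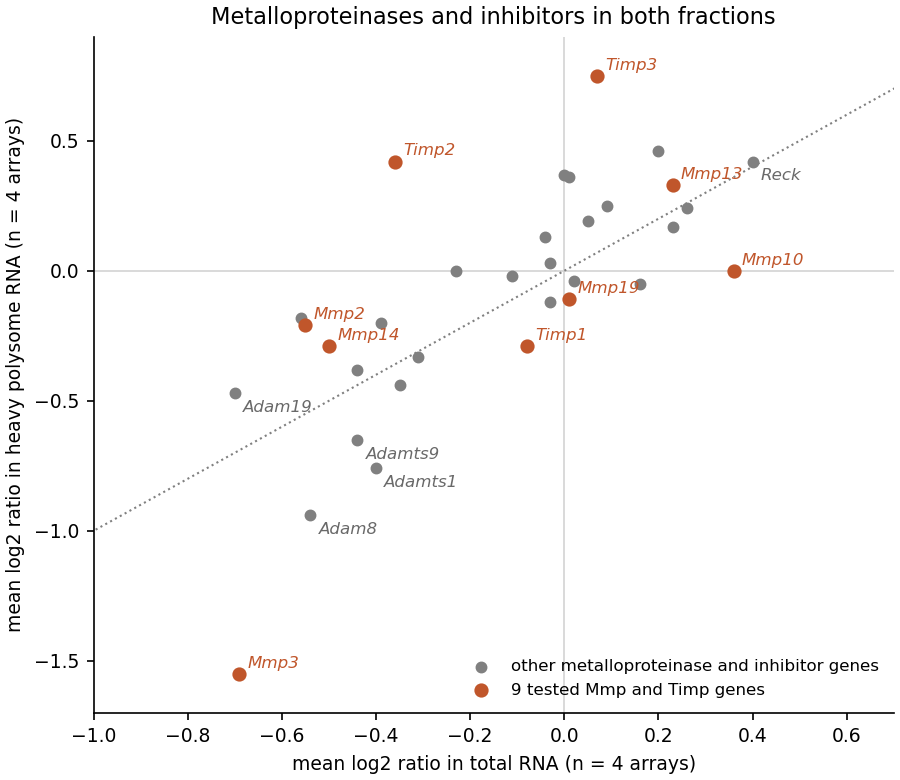
Mean log2 ratio of Eif4g3 siRNA over control siRNA in total RNA (horizontal axis) and heavy polysome RNA (vertical axis), each over 4 arrays, for the 9 tested Mmp and Timp genes (orange) and the tested genes of the other metalloproteinase, inhibitor, ADAM and ADAMTS lists (grey, Bmp1 and Tll1 included). The dotted line marks equal values. Mmp3 lies furthest below the line at -0.69 and -1.55, with Adam8, Adamts1 and Adamts9 below 0 on both axes.

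Among 13 tested genes of the plasminogen system and other activators of protease precursors, 1 passed in each fraction. The shares of all tested genes were 4.38% in total and 8.91% in heavy polysome RNA. Plat, which encodes tissue plasminogen activator, fell in total RNA (-1.23 ± 0.20, adjusted p = 0.0109) and in heavy polysome RNA (-1.08 ± 0.55, adjusted p = 0.00796). Leaving out total RNA array 2 or 3 removed the first call (0.0527 to 0.0632), and leaving out heavy polysome array 4 removed the second (0.0513). None of 16 tested AP-1, NF-kB and Ets factor genes passed limma in either fraction (1 in total and 3 in heavy polysome RNA at an unadjusted p below 0.05), with medians of -0.04 and 0.15.

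Of 18 tested inducers and receptors that act upstream of metalloproteinase genes, Fgf2 rose in total RNA (0.71 ± 0.12, adjusted p = 0.0243) and in heavy polysome RNA (0.81 ± 0.39, adjusted p = 0.00848). Under median centring its total RNA value was -0.05, against the -0.78 median of all tested genes. The oncostatin M receptor gene Osmr (-0.93 ± 0.46, adjusted p = 0.0127) and the growth factor receptor genes Pdgfra (-0.65 ± 0.13, adjusted p = 0.0109) and Pdgfrb (-0.47 ± 0.17, adjusted p = 0.0453) fell in heavy polysome RNA. Over all tested genes, 1.67% were called higher in total RNA, and 4.87% higher and 4.03% lower in heavy polysome RNA. Without heavy polysome array 4 the heavy polysome calls of Fgf2 (0.0534), Pdgfra (0.0608) and Osmr (0.0640) were lost. That of Pdgfrb was lost without any single heavy polysome array or total RNA array 2 or 3 (0.0572 to 0.131), and that of Fgf2 in total RNA without any single total RNA array (0.0800 to 0.0886).

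Matrix substrates of the proteases had medians of -0.36 and -0.27 over 17 tested genes, with 1 higher and 3 lower in total RNA, and 1 higher and 5 lower on the heavy polysome side. Of all tested genes 1.67% were called higher and 2.71% lower in total RNA, against 4.87% and 4.03% in heavy polysome RNA. The gene that rose in both was Fbn1, a microfibril gene (1.77 ± 0.31, adjusted p = 0.00519, and 1.68 ± 0.54, adjusted p = 0.00285). Lower in total RNA were Spp1 (-1.35 ± 0.55, adjusted p = 0.0341), Col1a2 (-0.46 ± 0.28, adjusted p = 0.0493) and Sparc (-0.55 ± 0.19, adjusted p = 0.0495), the last named to complete the count. The calls of Spp1 (0.0556 to 0.143) and Col1a2 (0.0817 to 0.147) were lost without any single total RNA array and without heavy polysome array 2 or 4. Lower in heavy polysome RNA were Spp1, the basement membrane gene Nid1 (-0.71 ± 0.34, adjusted p = 0.0170) and the collagen genes Col1a1 (-0.67 ± 0.36, adjusted p = 0.0229), Col5a1 and Col1a2. Over all its tested probes Col1a1 was at -0.41 there (adjusted p = 0.0916). All 5 heavy polysome calls were lost without heavy polysome array 4, those of Nid1 and the 3 collagen genes also without array 2, and those of the 3 collagen genes also without array 1. That of Col1a2 was lost without any single array other than total RNA array 4. With arrays centred on their medians, 0 genes passed in either fraction, so every call named here for the related genes was lost.

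By correlation over the 8 arrays, the genes whose ratios were most like those of Mmp3 were Mapk1ip1 (0.985), Ptgr1 (0.984), Sp100 (0.984), Nqo2 (0.967) and Ppp1r35 (0.964). Without heavy polysome array 1 the correlations were 0.90 to 0.96. The points share arrays and their normalisation. Their sizes differed from Mmp3, and Mapk1ip1, for example, was at 0.04 ± 0.19 in total and -0.24 ± 0.33 in heavy polysome RNA.

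Markers of other cell types were also measured. Of 12 macrophage markers, 6 were tested and 1 passed in each fraction, against 4.38% and 8.91% of all tested genes. Csf1r fell in total RNA (-0.57 ± 0.30, adjusted p = 0.0447) and Trem2 in heavy polysome RNA (-1.39 ± 0.71, adjusted p = 0.0165). Over all its tested probes Csf1r was at -0.40 in total RNA (adjusted p = 0.0562). The Csf1r call was lost without any single total RNA array and without heavy polysome array 2 or 4 (0.0721 to 0.157), and that of Trem2 without heavy polysome array 4 (0.0567). Csf1r, Cd68, Lyz2, Cd14 and Trem2 were well above background in both channels on all 8 arrays. Lyz1 was so on 7 arrays in Cy3 and 6 in Cy5, and Spi1 on 1 in each channel. Adgre1, Itgam, Fcgr1, Ptprc and Tyrobp were well above background on none of the 8 arrays in either channel. The marker median was -0.17, -0.12, -0.38 and -0.55 across the 4 total RNA arrays and -0.07, -0.09, -0.67 and -0.34 across those of heavy polysome RNA. On heavy polysome array 1, where Mmp3 was at -2.61, Trem2 was at -1.48 and Csf1r at -0.04. The summed marker level (log2) was 10.93 to 11.53 in control and 10.19 to 11.39 in Eif4g3 siRNA cells in total RNA, and 10.86 to 11.95 and 10.03 to 11.46 in heavy polysome RNA. Of 8 endothelial, 8 lymphocyte and 6 epithelial markers, 1, 3 and 4 were tested and 0 passed limma in either fraction, with 1 epithelial marker at an unadjusted p below 0.05 in total RNA. The part of other cells in the Mmp3 ratio was not tested.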

How the data were processed

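The authors' Agilent Feature Extraction tables hold spot and background intensity of both channels per array. Per the file headers, versions 10.7.3.1 (7 arrays) and 10.5.1.1 (total RNA array 2) made them, with probe coordinates on mm8. Deposited tables also hold log10 ratios of Cy5 over Cy3, not used here, and the deposited series matrix holds log2 ratios, which lay within 0.01 of those of the processed signals for at least 99.7% of 41267 probes.

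Mean signals were background-corrected (normexp, offset 50) and normalised by loess (span 0.3), leaving out 131 to 241 marked spots per array. No spot was saturated, and the number of arrays limits the precision. Spots of a probe were averaged, and the probe of highest mean signal stood for its gene. Members kept the gene name of the array design. Other genes took their RefSeq symbol (GRCm38.p6, names only) where one matched, and the name of the array design otherwise. Of 14483 tested genes, 12825 were matched. Tests used limma 3.58.1 in R 4.3.3, with 1 coefficient per fraction over 8 arrays, Benjamini-Hochberg adjustment over all tested genes and a threshold of 0.05, two-sided. The fit was tested on simulated data. Levels were taken after Aquantile normalisation between arrays. Figures used Python 3.11.15 and matplotlib 3.10.9.

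Members and lists were chosen with earlier results of these data known. The protease list was given without Bmp1 and Tll1 as an alternative chosen after seeing the data. All members were named, list genes where they passed (at most 6 per list, and Sparc after its value was seen), and the 5 genes best correlated with Mmp3. Alternatives covered normalisation, background, filter, probe choice, blocks and single arrays left out.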

Additional observations from a re-analysis of the deposited data

Results flagged for a closer look

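In 3 of 18 groups of 4 arrays (9 genes in 2 fractions), 1 array stood far from the others by Dixon's test at the 95% level. Chance alone flags about 1 of 20 independent groups. These groups share arrays and are not independent, so the count cannot be set against that rate. Mmp10 was at -1.26 on heavy polysome array 1, while the nearest array was at 0.39. Mmp2 was at 0.73 on that array, with the nearest at -0.44. Mmp13 was at 0.52 on total RNA array 1, with the nearest at 0.15.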

How the results depend on the processing

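Mmp3 stayed below 0 in both fractions under every setting tried. Its fraction difference ran from -1.15 to -0.50 with single arrays left out. Under median centring it was 0.02, where the median of all tested genes was 0.78, so it lay -0.76 from that median and below all 8 other tested members. Mmp3 was chosen for a low value of this difference, so its low place is a description and no support. Median centring also turned total RNA values to -0.10 (Mmp10), -0.27 (Mmp13), -0.66 (Mmp19), -0.84 (Timp3) and -0.05 (Fgf2). The heavy polysome value of Mmp10, 0.00, was 0.14 under median centring, 0.01 without background correction, 0.18 in the deposited ratios and 0.42 without heavy polysome array 1. Without total RNA array 4, Mmp19 (-0.01) and Timp3 (-0.15) turned in total RNA, and with single arrays left out they ran up to 0.03 and 0.21. The control level difference of Timp1 between fractions was -0.20 without Aquantile.

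The number of members called was 0 in total RNA, with Mmp3 described without a test. It was 1 with the mean of all probes, with slide as a random block or with that fraction alone, and 0 to 1 with single arrays left out. In heavy polysome RNA it was 0, and it was 2 with the slide block and 0 to 1 with single arrays left out. Slide correlation was estimated at -0.27. Genes called in total RNA numbered 0 under median centring, 1451 in the deposited ratios, 1474 with the slide block, 298 with heavy polysome arrays 2 and 4 as 1 replicate, and 51 to 1317 with single arrays left out. In heavy polysome RNA they numbered 0, 2045, 2595, 434 and 337 to 1536 in the same settings, and 378 with that fraction alone. The fraction difference kept 0 calls throughout.

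The labels do not say whether same-numbered arrays of both fractions share cells. Correlations of same-numbered ratio deviations over all tested genes were -0.016, 0.172, -0.110 and -0.297. Only 1 of 4 total RNA arrays correlated best with its own number. Noise of single arrays enters these deviations too, so they cannot settle the pairing. By level, 3 of the 9 tested members had array 3 lowest in both fractions and both channels, as had 3.99% of all tested genes. With a replicate block 210 and 585 genes were called, and 0 members, with Mmp3 described without a test. With single arrays left out, the Mmp3 level difference between fractions ran from -0.15 to 0.92 in control and from -0.94 to 0.08 in Eif4g3 siRNA cells. The causes of these shifts were not tested.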
